A study of Mus musculus with 6 samples.

Results

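The genes described here are 55 genes of mitosis and chromosome segregation, a list of G2/M and mitotic genes given by symbol. All 55 were found among the 55364 genes listed in the count tables. RNA came from primary lung fibroblasts (LFs) of young adult C57Bl6/J mice, cultured to passage 2 or 3, moved to serum-free medium and given TGFβ (10 ng/ml) over 24 h. There were 3 libraries of wt LFs and 3 of LFs from Tks5+/- mice. The labels name the second genotype a knockout, whereas the study's methods describe mice that carry 1 targeted allele of Tks5 (Sh3pxd2a) in all tissues. All 6 libraries were exposed to TGFβ, so the effect of TGFβ itself was not measured, and no label ties a library to an animal or a culture day. The p-values therefore measure the spread between these samples, which may be technical.

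A dividing cell enters mitosis when CDK1, bound to B-type cyclins, is switched on. Aurora and Polo-like kinases then build the spindle, and kinetochores assemble on centromeres marked by the histone variant CENP-A. The spindle checkpoint holds back the anaphase-promoting complex (APC/C), a ubiquitin ligase, until all chromosomes are attached, after which the APC/C removes securin and the B cyclins and the cell divides by cytokinesis. Most of these genes are transcribed late in the cell cycle, and their promoters are known for a CCAAT box, bound by NF-Y, and for a cell cycle genes homology region (CHR), bound by the DREAM complex in resting cells and by B-MYB and FOXM1 complexes in dividing ones. LFs multiply in fibrotic lungs, and TGFβ at the same time drives them to become contractile myofibroblasts, in which cycling is usually low.

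Because the members are known for shared promoter letters, the bases before the start were read for 8 members. The sequences are from RefSeq on GRCm38.p6, each 150 bases long and ending at the base before the annotated start, and capitals mark TTTGAA (the CHR letters) and CCAAT on either strand. Cdk1, Cks1b, Bub3, Ube2c, H2afz and Birc5 are shown because their RNA was higher in Tks5+/- LFs, and Top2a and Mki67 as members that were not called.
Cdk1, chr10:69352913-69353062, reverse strand: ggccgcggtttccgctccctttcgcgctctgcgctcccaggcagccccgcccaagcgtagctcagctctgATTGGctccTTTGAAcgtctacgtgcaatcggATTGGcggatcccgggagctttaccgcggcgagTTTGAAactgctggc
Cks1b, chr3:89418292-89418441, reverse strand: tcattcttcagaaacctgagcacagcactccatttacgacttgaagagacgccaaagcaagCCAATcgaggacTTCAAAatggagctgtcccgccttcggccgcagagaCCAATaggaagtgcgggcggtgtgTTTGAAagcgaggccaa
Bub3, chr7:131560220-131560369, forward strand: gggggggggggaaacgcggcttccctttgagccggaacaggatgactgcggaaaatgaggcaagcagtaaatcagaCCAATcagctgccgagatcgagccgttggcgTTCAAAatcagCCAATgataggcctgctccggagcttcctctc
Ube2c, chr2:164769779-164769928, forward strand: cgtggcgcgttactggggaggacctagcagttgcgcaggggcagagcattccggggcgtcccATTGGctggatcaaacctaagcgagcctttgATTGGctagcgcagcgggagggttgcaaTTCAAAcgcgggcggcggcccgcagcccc
H2afz, chr3:137864337-137864486, forward strand: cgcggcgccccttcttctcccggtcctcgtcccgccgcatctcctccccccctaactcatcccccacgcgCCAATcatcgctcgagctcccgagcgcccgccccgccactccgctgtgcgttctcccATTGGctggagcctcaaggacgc
Birc5, chr11:117849087-117849236, forward strand: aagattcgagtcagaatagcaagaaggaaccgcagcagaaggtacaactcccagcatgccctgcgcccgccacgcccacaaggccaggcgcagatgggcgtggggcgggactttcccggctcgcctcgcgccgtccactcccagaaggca
Top2a, chr11:99024190-99024339, reverse strand: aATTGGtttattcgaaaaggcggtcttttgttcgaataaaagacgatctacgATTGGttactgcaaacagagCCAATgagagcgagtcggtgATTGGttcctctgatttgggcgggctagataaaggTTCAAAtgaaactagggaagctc
Mki67, chr7:135716380-135716529, reverse strand: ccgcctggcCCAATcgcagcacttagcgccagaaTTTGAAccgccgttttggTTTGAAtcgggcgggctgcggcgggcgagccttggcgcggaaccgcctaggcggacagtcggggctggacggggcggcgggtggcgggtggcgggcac
The letters were found in both groups. Cdk1 and Mki67 both held 2 CHR matches, and Top2a held 4 CCAAT matches against 2 in Cdk1, Cks1b, Bub3, Ube2c and H2afz. Birc5 held neither in these 150 bases, which says only that these letters are not in this window.

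Over the whole promoter window, from 250 bases before to 50 after the start, 47 of the 55 members had a RefSeq promoter in the table used. A member or gene was counted if any of its promoters held the letters. Of these 47, 31 (66.0%) held TTTGAA, against 20.2% of 27025 genes, and 34 (72.3%) held CCAAT, against 41.1%. Both motifs stood in 27 members (57.4%), against 8.97% of all genes. The E2F letters TTTCCCGC or TTTGGCGC were in 0 of the 47, against 1.80% of all genes. Among the 23 members with a promoter that were called higher in Tks5+/- LFs, 16 (69.6%) held TTTGAA and 17 (73.9%) held CCAAT. In the other 24 members, which include members with too few counts to be tested, the counts were 15 (62.5%) and 17 (70.8%). Of these 24, Nek2, Cks2, Kif2c and Hmgb2 were called higher in a fit without a filter on low counts. A match is a description of letters, not of binding.

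**Figure D1:**
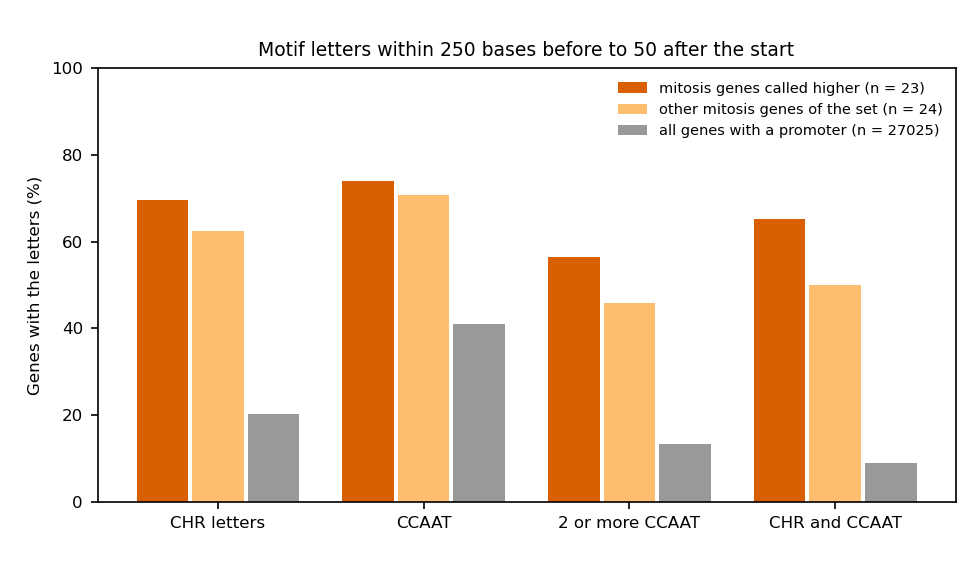
Percent of genes with the motif letters on either strand between 250 bases before and 50 bases after a RefSeq start, for mitosis genes called higher in Tks5+/- LFs (n = 23), the other mitosis genes of the set, tested or not (n = 24), and all genes with a promoter (n = 27025). The bars of both mitosis groups stand above the bar of all genes for each of the 4 motif classes drawn, with 69.6% and 62.5% against 20.2% for the CHR letters.

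The 6 libraries held between 1344507 and 2369882 counts. Reads were taken from the transcript end (Quant-Seq), scaled by edgeR's TMM method to CPM (counts scaled to the same library size), and tested with edgeR's quasi-likelihood test over 10346 genes that passed a filter on low counts. A gene was called where its Benjamini-Hochberg adjusted p over all genes tested stayed under 0.05 with a change of 1.2 times or more, and every adjusted p below comes from this test unless another is named. The log2 fold change of Tks5+/- over wt LFs (log2FC) and its standard error (SE) come from the same fit. Sh3pxd2a, the targeted gene, stood at 102 to 132 CPM in wt and 131 to 151 CPM in the Tks5+/- libraries, a log2 fold change of 0.29 (adjusted p = 0.249), so the counts did not show less of it in the libraries labelled Tks5+/-. Reads from the transcript end can also come from an allele that lacks an internal exon, but whether they did here was not tested. All 11 listed fibroblast markers, Col1a1, Col1a2 and Vim among them, had counts in all 6 libraries. Of these, Col3a1, Pdgfra, Thy1 and Vim were called higher and Fn1 and Pdgfrb lower. That is 4 and 2 of 11, against 22.8% and 22.1% of all genes tested. The summed level of 18 macrophage markers ran from 416 to 2648 CPM in wt, with the highest in wt replicate 3. In Tks5+/- LFs it ran from 150 to 169 CPM, with Ptprc, Adgre1 and Marco at 0 but Lyz2 at 76.3 to 106 CPM. Of the 13 macrophage markers tested, 0 were called higher and 6 lower, against the same 22.8% and 22.1%. The endothelial markers summed to 119 to 152 CPM in wt and 45.6 to 60.4 CPM in Tks5+/- LFs. Of the 5 tested, 0 were called higher and 4 lower, and Ramp2 was not called (log2FC 0.32, adjusted p = 0.331). Of 4 listed genes of the Y chromosome, Ddx3y was called lower (log2FC -2.84), Eif2s3y was not called (log2FC -0.23, adjusted p = 0.688) and Kdm5d and Uty were too low to be tested, and Xist had 0 counts in all 6 libraries. The part of these differences in the results below was not tested, except where a value without wt replicate 3 is given.

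Most tested members of this set were called higher in Tks5+/- LFs, which did not hold for the further mitosis genes described below. Of the 55 members, 40 passed the filter, and 25 of them were called higher, against 22.8% of all genes tested, and 1 was called lower (Cdc20), against 22.1%. The other 14 tested members were not called. The median log2 fold change of the 40 was 1.08, beside -0.046 over all genes tested. The members were chosen with earlier results of these data known. Their shares beside those of all genes, here and below, are therefore descriptions. In 23 of the 40 all 3 Tks5+/- libraries stood above all 3 wt libraries, against 26.1% of all genes tested, and in 3 (Cdc20, Smc2 and Smc4) they stood below, against 27.6%. For each of these 26 an exact two-sided permutation test of the CPM gave p = 0.1, the smallest p that 3 against 3 libraries allow. The filter favours genes that are high in either group, so the other 15 members were also fitted without it. Then 29 of 55 were called higher, against 11.3% of 21720 genes, and 1 lower, against 11.5%. Over all genes 2456 were called higher without the filter and 2356 with it. The share of all genes thus fell mainly through added genes with few counts. Racgap1 was called with the filter but not without it (edgeR adjusted p = 0.0525). In bulk RNA, more cells in mitosis and more RNA of these genes per cell cannot be told apart.

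**Figure D2:**
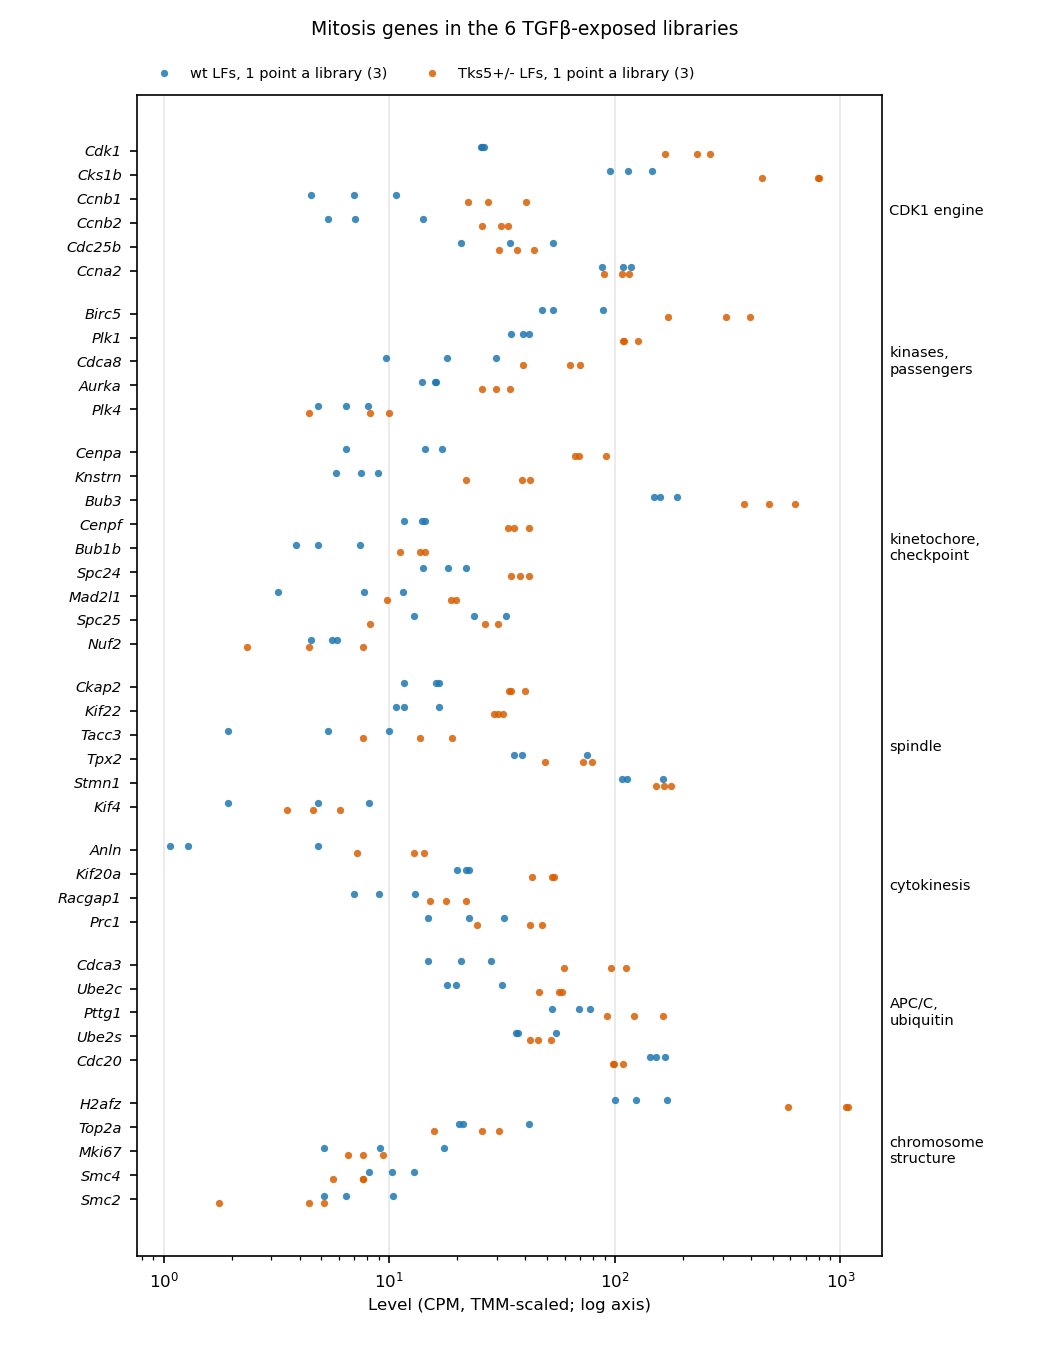
Level of the 40 tested mitosis genes in each library (CPM after TMM scaling, log axis), 1 point a library, with 3 wt (blue) and 3 Tks5+/- libraries (orange), grouped by role. In 23 genes the orange points all lie to the right of the blue ones, as for Cdk1 with 25.6 to 26.2 CPM in wt and 167 to 265 CPM in Tks5+/- LFs, and for Cdc20 they all lie to the left.

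The whole set summed to 1342 to 1804 CPM in wt and 3315 to 4897 CPM in Tks5+/- LFs. H2afz, Cks1b, Bub3, Cdk1 and Birc5 made up 418 to 589 CPM of this in wt and 1747 to 3147 CPM in Tks5+/- LFs. Without these 5, the other 50 members summed to 846 to 1215 CPM in wt and 1506 to 1751 CPM in Tks5+/- LFs. These TMM-scaled ranges did not overlap. In the same scaling all tested genes summed to 854570 to 870829 CPM in wt and 1.07e+06 to 1.22e+06 CPM in Tks5+/- LFs. The TMM factors were 1.15 to 1.17 in wt and 0.82 to 0.93 in Tks5+/- LFs, so the separation of the 50 rests on this scaling. Of those 50, 35 were tested, and 20 were called higher and 1 lower, against 22.8% and 22.1% of all genes tested.

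The engine of mitotic entry showed the highest log2 fold change of the set. Of its 8 members 6 were tested, 4 were called higher, and their median log2 fold change was 1.83. The counts by role, here and below, stand beside 22.8% called higher and 22.1% called lower over all genes tested. Cdk1 (ENSMUSG00000019942, GRCm38 chr10:69335146-69352938, reverse strand), the kinase itself, stood at 25.7, 26.2 and 25.6 CPM in wt replicates 1, 2 and 3 and at 167, 231 and 265 CPM in Tks5+/- replicates 1, 2 and 3. The wt libraries were almost level, and every Tks5+/- library lay far above them. The means were 25.8 ± 0.331 CPM (SD, n = 3) and 221 ± 49.6 CPM (SD, n = 3) (log2FC 3.09, SE 0.24, adjusted p = 3.14e-09). Cks1b, a small subunit bound by cyclin-dependent kinases, stood at 115, 94.7 and 146 CPM in wt and 450, 797 and 802 CPM in Tks5+/- LFs (log2FC 2.52, SE 0.25, adjusted p = 9.39e-08). The B cyclins, which activate CDK1, moved the same way from few counts. Ccnb1 stood at 4.51, 6.96 and 10.8 CPM in wt, from 7 to 29 counts, and 27.4, 22.2 and 40.4 CPM in Tks5+/- LFs (log2FC 1.95, SE 0.34, adjusted p = 8.11e-05). For Ccnb2 the ranges were 5.35 to 14.1 CPM and 25.7 to 33.5 CPM (log2FC 1.70, adjusted p = 2.43e-04). Neither cyclin overlapped between the genotypes. Cdc25b, a phosphatase that activates CDK1, was not called. It stood at 36.1 ± 16.4 CPM (SD, n = 3) in wt and 37.2 ± 6.65 CPM (SD, n = 3) in Tks5+/- LFs, with a 95% interval of the log2 fold change from -0.57 to 0.61. Ccna2, cyclin A2, was not called either, at 87.5 to 118 and 89.5 to 116 CPM, but its counts are shared with a neighbouring gene, as described below. Cks2 and Cdc25c had too few counts to be tested. Without the filter Cks2 had a log2 fold change of 1.91 (adjusted p = 0.00954), and Cdc25c was not called (adjusted p = 0.457).

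Of 5 tested kinases and chromosomal passengers 4 were called higher, and their median log2 fold change was 1.55. Birc5, which encodes survivin, the passenger subunit that brings Aurora B to centromeres, stood at 53.4, 47.6 and 88.6 CPM in wt and 172, 311 and 398 CPM in Tks5+/- LFs. The lowest Tks5+/- library lay above the highest wt library, though the 3 Tks5+/- libraries were far apart. Its log2FC was 2.20 (SE 0.30, adjusted p = 2.15e-05). Cdca8, which encodes the passenger subunit borealin, stood at 18.02, 9.63 and 29.7 CPM in wt and 70.2, 39.2 and 62.9 CPM in Tks5+/- LFs (log2FC 1.55, SE 0.32, adjusted p = 8.14e-04). Plk1, the Polo-like kinase of mitotic entry and spindle assembly, stood at 39.3, 34.8 and 41.5 CPM in wt and 110, 108 and 126 CPM in Tks5+/- LFs (log2FC 1.57, SE 0.21, adjusted p = 4.03e-06). The libraries of each genotype were close to each other, but these counts were also given to Ern2 on the opposite strand. Aurka, the Aurora kinase of spindle poles, had 13.9 to 16.1 CPM in wt and 25.8 to 34.3 CPM in Tks5+/- LFs (log2FC 0.97, adjusted p = 0.00592). Plk4, the kinase of centriole duplication, was not called (log2FC 0.24, adjusted p = 0.677). Aurkb, Nek2 and Ttk were too low to be tested. Without the filter Aurkb, the catalytic passenger subunit, was called higher (adjusted p = 0.00122), with 0, 1 and 2 counts in wt and 9, 15 and 5 counts in Tks5+/- LFs. Nek2, a centrosomal kinase, was called higher as well (log2FC 1.91, adjusted p = 0.00892), and Ttk, a checkpoint kinase, was not called (adjusted p = 0.393).

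Kinetochore and checkpoint genes were called higher in 7 of 9 tested, with a median log2 fold change of 1.22. Cenpa, the histone variant that marks centromeres, stood at 6.44, 14.4 and 17.1 CPM in wt and 66.4, 91.3 and 69.1 CPM in Tks5+/- LFs (log2FC 2.52, SE 0.28, adjusted p = 4.28e-07). Bub3, which carries checkpoint proteins to kinetochores, stood at 189, 149 and 158 CPM in wt and 375, 483 and 627 CPM in Tks5+/- LFs (log2FC 1.58, SE 0.22, adjusted p = 6.01e-06). In both genes the lowest Tks5+/- library lay above the highest wt library. Knstrn, a small kinetochore-associated protein, stood at 5.79, 7.49 and 8.90 CPM in wt and 21.9, 38.6 and 42.0 CPM in Tks5+/- LFs (log2FC 2.17, SE 0.33, adjusted p = 1.36e-05). Cenpf, an outer kinetochore protein, rose by 1.45 (adjusted p = 1.38e-04), Bub1b, the checkpoint inhibitor of the APC/C, by 1.22 (adjusted p = 0.0131) and Mad2l1, its partner in the checkpoint, by 1.04 (adjusted p = 0.0415), all on the log2 scale. The Mad2l1 libraries overlapped, with 3.21 to 11.5 CPM in wt and 9.72 to 19.8 CPM in Tks5+/- LFs. Subunits of the NDC80 complex, which binds microtubules, did not all give the same result. Spc24 rose by 1.05 (adjusted p = 0.00235), whereas its partner Spc25 had a log2 fold change of -0.11 (95% interval -1.02 to 0.79) and Nuf2 -0.14 (95% interval -1.14 to 0.86). Ndc80, with Bub1 and Cenpe, was too low to be tested, and without the filter these 3 were not called.

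Of 6 tested spindle genes 3 were called higher, and the median log2 fold change was 0.76. Ckap2, a microtubule-stabilising protein, stood at 11.6, 16.1 and 16.7 CPM in wt and 34.6, 33.9 and 39.9 CPM in Tks5+/- LFs (log2FC 1.27, SE 0.27, adjusted p = 5.47e-04). Kif22, a chromosome-arm kinesin, stood at 11.6, 10.7 and 16.7 CPM in wt and 31.8, 29.3 and 30.2 CPM in Tks5+/- LFs (log2FC 1.199, SE 0.28, adjusted p = 0.00149). Both were apart between the genotypes, and Kif22 varied little among the Tks5+/- libraries. Tacc3, a spindle protein bound by Aurora A, was near the threshold, at 1.93, 5.35 and 10.0 CPM in wt and 13.7, 7.61 and 18.9 CPM in Tks5+/- LFs, which overlapped (log2FC 1.12, SE 0.45, adjusted p = 0.048). Tpx2, the activator of Aurora A, stood at 35.9 to 75.3 CPM and 49.2 to 79.0 CPM and was not called (adjusted p = 0.236). Stmn1, which destabilises microtubules, was not called either (log2FC 0.36, adjusted p = 0.168), nor was the kinesin Kif4 (-0.16, adjusted p = 0.815). Kif11, Kif2c and Nusap1 were too low to be tested. Of these, Kif2c, a microtubule-depolymerising kinesin, had a log2 fold change of 1.82 without the filter (adjusted p = 0.0159). Pseudogenes named after Ccnb1, Ccnb2, Kif22, Kif4 and Stmn1 are annotated, and how reads were split between copies is not given in the sources used here.

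In cytokinesis 3 of 4 tested members were called higher, with a median log2 fold change of 1.05. Anln, which encodes the contractile-ring scaffold anillin, stood at 1.29, 1.07 and 4.82 CPM in wt, from 2, 2 and 13 counts, and at 14.3, 12.9 and 7.16 CPM in Tks5+/- LFs (log2FC 2.07, SE 0.51, adjusted p = 0.00221). Kif20a, a kinesin of the central spindle, stood at 19.95, 22.5 and 21.9 CPM in wt and 52.7, 42.7 and 53.7 CPM in Tks5+/- LFs (log2FC 1.21, SE 0.24, adjusted p = 3.05e-04), in counts that nearly equal those of a gene on the opposite strand. Racgap1, part of the centralspindlin complex, stood at 9.01, 6.96 and 12.98 CPM in wt and 21.9, 15.2 and 17.9 CPM in Tks5+/- LFs (log2FC 0.89, SE 0.34, adjusted p = 0.0333). None of these 3 overlapped between the genotypes, although Anln rested on very few wt counts. Prc1, which bundles the microtubules of the central spindle, was not called (log2FC 0.69, adjusted p = 0.0615). Kif23, Ect2 and Kif20b were too low to be tested and were not called without the filter.

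The APC/C and ubiquitin genes held the single member called lower. Cdca3, which takes part in the degradation of the mitosis inhibitor WEE1, stood at 14.8, 20.9 and 28.2 CPM in wt and 59.3, 96.6 and 112 CPM in Tks5+/- LFs (log2FC 2.03, SE 0.27, adjusted p = 3.64e-06). Ube2c, the ubiquitin-conjugating enzyme of the APC/C, stood at 18.02, 19.8 and 31.5 CPM in wt and 46.1, 58.5 and 56.3 CPM in Tks5+/- LFs (log2FC 1.18, SE 0.26, adjusted p = 6.80e-04). Pttg1, which encodes securin, stood at 52.8, 69.6 and 77.9 CPM in wt and 92.7, 121 and 164 CPM in Tks5+/- LFs (log2FC 0.91, SE 0.23, adjusted p = 0.00301). In all 3 the Tks5+/- libraries lay above the wt libraries. Ube2s, which extends ubiquitin chains on APC/C targets, was not called (log2FC 0.13, 95% interval -0.36 to 0.61). Cdc20, the activator of the APC/C, stood at 143, 167 and 152 CPM in wt and 109, 97.7 and 98.8 CPM in Tks5+/- LFs. The groups did not overlap, and the log2FC was -0.60 (SE 0.20, adjusted p = 0.0176). Its call was lost in 4 of 20 alternative fits. The GC correction gave adjusted p = 0.121, and leaving out wt replicate 2 gave adjusted p = 0.0937, Tks5+/- replicate 2 adjusted p = 0.0637 and Tks5+/- replicate 3 adjusted p = 0.0709, and the value could not be told apart from that of its neighbour Elovl1.

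Genes of chromosome structure were split. H2afz (ENSMUSG00000037894, chr3:137864487-137866922, forward strand), which encodes the histone variant H2A.Z, stood at 124, 100 and 171 CPM in wt and 583, 1081 and 1054 CPM in Tks5+/- LFs. Each Tks5+/- library held more than the highest wt library, and the log2FC was 2.78 (SE 0.26, adjusted p = 5.59e-08). The other 4 tested members were not called. Mki67, the proliferation marker Ki-67, which coats mitotic chromosomes, stood at 5.15, 9.10 and 17.4 CPM in wt and 6.58, 9.36 and 7.68 CPM in Tks5+/- LFs (log2FC -0.49, SE 0.42, adjusted p = 0.358). Top2a, the topoisomerase that untangles sister chromatids, stood at 21.2, 20.3 and 41.5 CPM in wt and 25.8, 15.8 and 30.7 CPM in Tks5+/- LFs (log2FC -0.22, SE 0.31, adjusted p = 0.583). In both genes the highest library of all was wt replicate 3, and the sign turned without it, to 0.12 for Mki67 and 0.22 for Top2a. The condensin subunits Smc2 and Smc4, which compact chromosomes, were not called. Smc2 stood at 5.15, 6.42 and 10.4 CPM in wt and 4.39, 1.76 and 5.12 CPM in Tks5+/- LFs (log2FC -0.98, SE 0.48, adjusted p = 0.103). Smc4 stood at 10.3, 12.8 and 8.16 CPM in wt and 7.68, 7.61 and 5.63 CPM in Tks5+/- LFs (log2FC -0.57, SE 0.39, adjusted p = 0.244). Hmgb2, a chromatin protein, was too low to be tested. Without the filter it was called higher (adjusted p = 0.00335), with 1, 1 and 0 counts in wt and 7, 12 and 5 counts in Tks5+/- LFs.

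**Figure D3:**
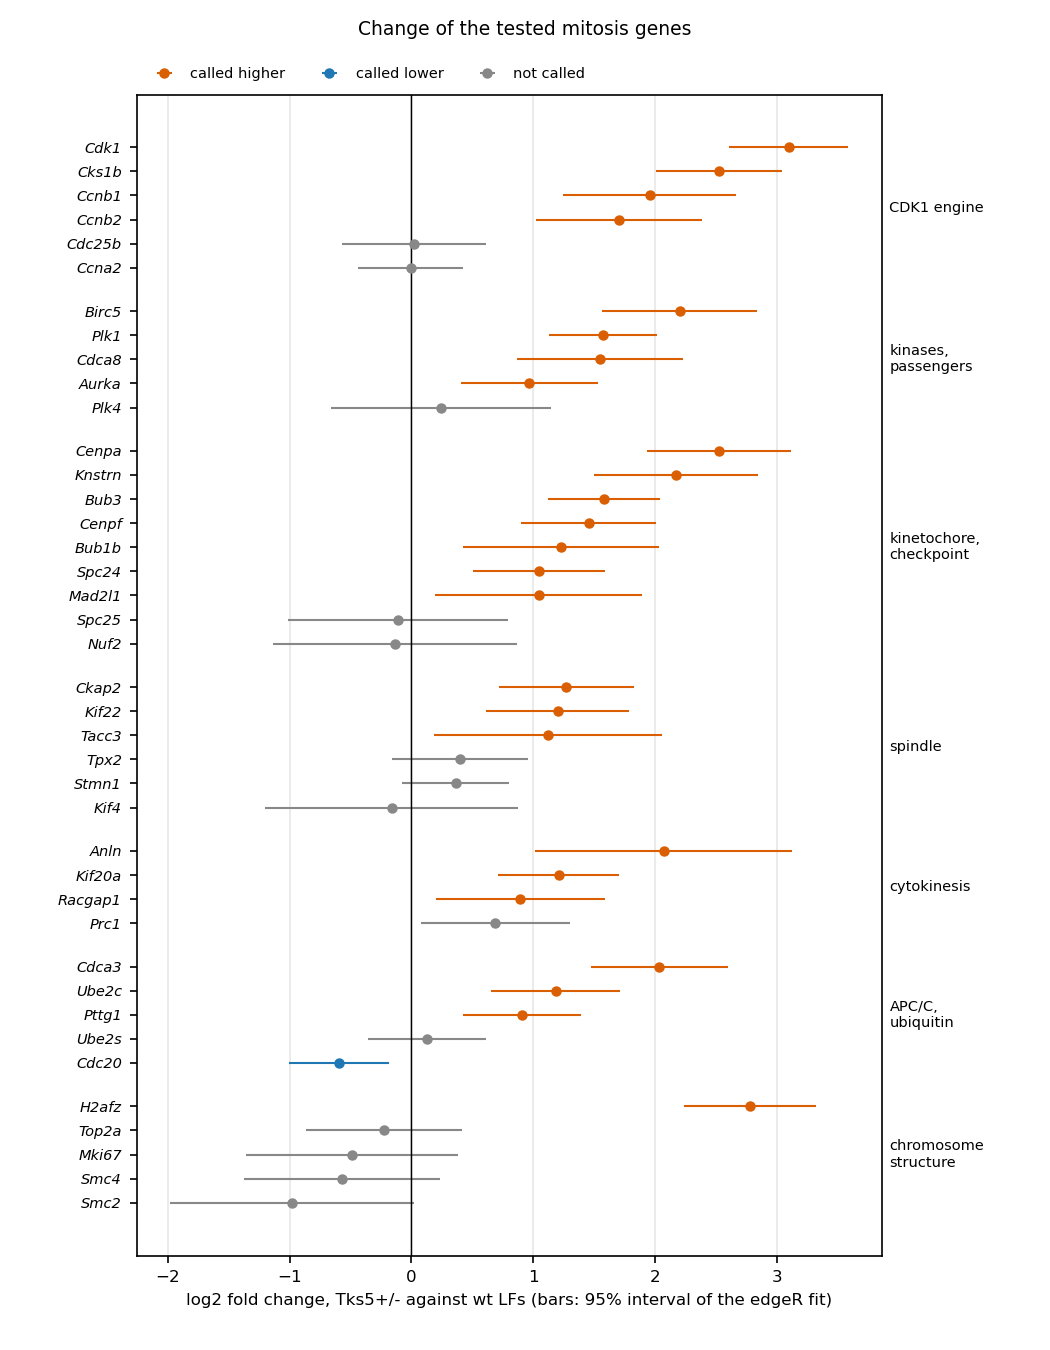
Log2 fold change of the 40 tested mitosis genes in Tks5+/- against wt LFs from the edgeR fit, with bars for the 95% interval, grouped by role and coloured by call. Of the 40, 25 lie to the right of 0 and were called, and Cdc20 was the single gene called to the left, with counts it shares with Elovl1.

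For 5 members the transcript ends where a gene on the opposite strand with at least 10 counts ends, and their counts cannot be read as the member's own. Plk1 and Ern2, a gene for a stress sensor of the endoplasmic reticulum, had the same count in each of the 6 libraries, 61, 65 and 112 in wt and 201, 185 and 247 in Tks5+/- LFs. For Kif20a the counts were 31, 42 and 59 in wt and 96, 73 and 105 in Tks5+/- LFs, beside 32, 46 and 60 and then 98, 73 and 106 for Cdc23, which encodes an APC/C subunit. Cdc20 had 222, 312 and 409 counts in wt and 198, 167 and 193 in Tks5+/- LFs, and Elovl1, a fatty acid elongase, had 274, 387 and 491 and then 246, 207 and 249. These pairs run in step over all 6 libraries, and without strand the reads of the 2 genes of a pair cannot be told apart. Ccna2 ran with Exosc9, an RNA exosome subunit (136, 203 and 317 against 127, 196 and 284 counts in wt, 196, 153 and 226 against 156, 114 and 172 in Tks5+/- LFs). Prc1 ran with Rccd1 (23, 42 and 87 against 24, 48 and 101 counts in wt, 77, 42 and 93 against 77, 56 and 95 in Tks5+/- LFs). Ube2c also ends at such a gene, Tnnc2, which had only 2 counts over all 6 libraries. Among the 50 members without a counted neighbour, Ube2c included, 35 were tested and 23 were called higher, against 22.8% of all genes tested. The median log2 fold change of these tested members was 1.12.

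Fold changes in this comparison fell with transcript length across all genes, and the mitosis genes were read against genes of like length. Spearman's rho between log2 fold change and the longest annotated transcript was -0.397 over 10339 genes and -0.219 over the 40 members, genes that share the same 6 libraries. With the length of the 3′ UTR, the part the reads were counted on, rho was -0.169 over 9456 genes and 0.226 over the members. The tested members had a median length of 3532.5 bases, near the 3204 of all tested genes. Members called higher had a median of 3334 bases and the other tested members 3888.

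Few members were short. Under 1 kb, where 56.0% of all tested genes were called higher, the set held 1 tested member, Cks1b with 849 bases. Between 1 and 2 kb 6 of 9 members were called higher, against 36.7% of all genes. Between 2 and 3 kb the count was 5 of 6, against 25.7%, and between 3 and 4 kb 6 of 10, against 16.5%. From 4 to 6 kb 5 of 11 were called higher, against 10.7%, namely Cdk1, Bub3, Racgap1, Anln and Knstrn. Above 6 kb it was 2 of 3, against 5.14%, namely Cenpf with 11130 bases and Mad2l1 with 7557, while Mki67 with 10061 bases was not called. The longest annotated transcript can overstate the one in use. The longest coding transcript was shorter for several members, among them Cenpa, at 1466 against 3806 bases, and Bub3, at 3414 against 4015. It was also shorter for Racgap1, at 3052 against 4475, and Ube2s, at 1238 against 4093. By that length Bub3 and Racgap1, called higher, and Ube2s, not called, fall outside the band from 4 to 6 kb.

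When each library was corrected for its own trend with transcript length, 26 of the 40 members were called higher, against 21.3% of all genes, and 1 lower, and the median log2 fold change was 1.16. The 25 members called without the correction were all called with it. The correction lowered the short genes, with Cks1b moving from 2.52 to 1.98 and H2afz from 2.78 to 2.30. It raised the long ones, with Cenpf moving from 1.45 to 2.17 and Cdk1 from 3.09 to 3.36. Prc1 passed after correction (0.83, adjusted p = 0.0267). Mki67 and Top2a turned sign, to 0.17 and 0.13, and stayed uncalled, with adjusted p = 0.780 and 0.760. A correction by coding transcript length gave 27 members called higher, against 20.2% of all genes, and one by 3′ UTR length 25, against 23.2%.

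**Figure D4:**
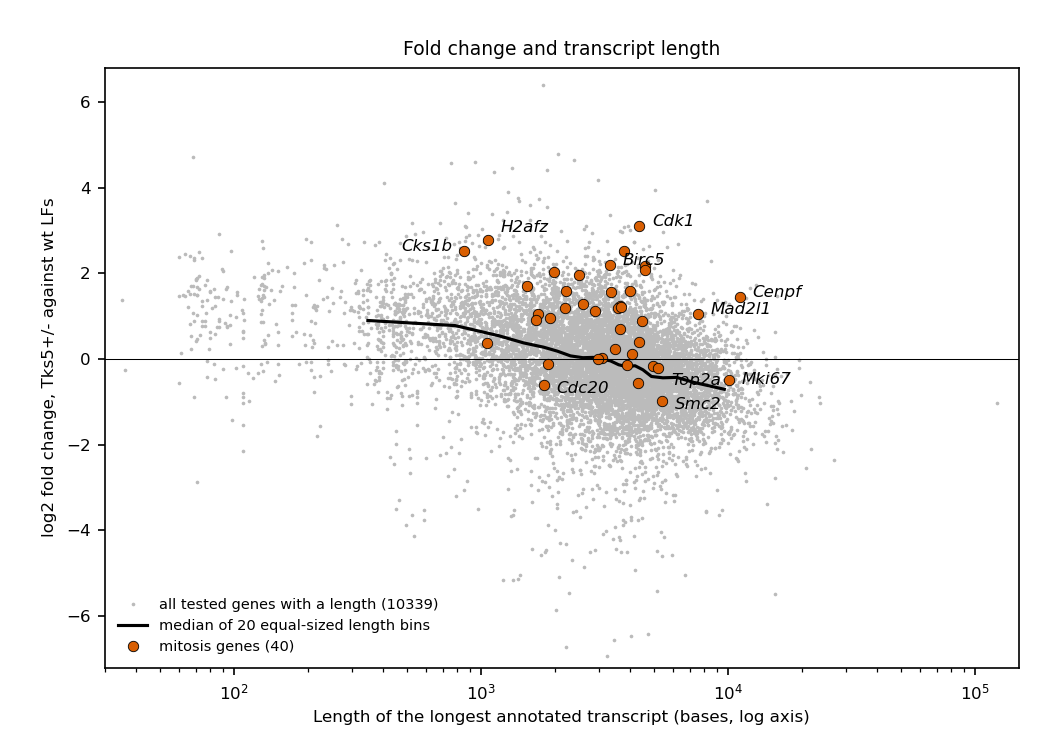
Log2 fold change in Tks5+/- against wt LFs by length of the longest annotated transcript (log axis) for 10339 tested genes (grey), with the median of 20 equal-sized length bins (black line) and the 40 mitosis genes (orange). The black line falls from short to long transcripts, and most orange points lie above it across the range of lengths, with Smc2, Mki67 and Cdc20 among those near or below 0.

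Wt replicate 3, the library with the highest macrophage markers, also held the highest wt level for 31 of the 40 members, against 35.6% of all genes tested. Its part in the result can be seen by leaving it out. Then 43 members passed the filter and 30 were called higher, against 20.2% of all genes, with a median log2 fold change of 1.37, and all 25 members of the full fit were among the 30. The median was thus larger without this library, though over 43 members in place of 40, and no median over the same 40 was computed. Among the Tks5+/- libraries the highest level was in replicate 3 for 21 members, in replicate 1 for 12 and in replicate 2 for 7.

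Within a library, the ratio of 2 members does not depend on scaling. The log2 ratio of Cdk1 to Ccnb1 was 1.89 ± 0.632 (SD, n = 3) in wt and 2.90 ± 0.417 (SD, n = 3) in Tks5+/- LFs (exact two-sided permutation test, p = 0.1). For Birc5 over Mki67 it was 2.70 ± 0.582 and 5.15 ± 0.503 (SD, n = 3 each, exact permutation p = 0.1), with no overlap. For Spc24 over Spc25 it was -0.28 ± 0.682 and 1.02 ± 1.16 (SD, n = 3 each, exact permutation p = 0.2), and the libraries overlapped. The pairs were picked with the values known. Over the 4 pairs computed (the other was Cdk1 over Ccna2), the exact permutation p-values adjusted by the Benjamini-Hochberg method were 0.133, 0.133 and 0.2 in the order given.

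Mitosis genes outside the set were called in each direction about as often as all genes. Of 117 further genes listed for the spindle, kinetochore, cohesin, condensin and APC/C, 116 were matched and 78 tested, and 15 were called higher and 16 lower, near the 22.8% and 22.1% of all genes tested, with a median log2 fold change of 0.07. The 3 with the smallest adjusted p on the higher side were Cenpw, a centromere protein, at 26.4 ± 7.32 CPM in wt and 178 ± 17.0 CPM in Tks5+/- LFs (SD, n = 3 each, log2 fold change 2.73, edgeR adjusted p = 1.29e-08), Cdc26, a small APC/C subunit (2.35), and Ska1, which couples kinetochores to microtubules (2.40). On the lower side they were Stag2, a cohesin subunit (-2.68), Cdk5rap2, a centrosomal protein (-2.85), and Smc1a, a cohesin subunit (-1.32). Of 14 tested APC/C subunits 5 were called higher and 5 lower, of 8 tested cohesin genes 4 were called lower and of 10 tested CENP genes 3 were called higher. With so few genes in a group, nothing is read from these counts against the same background. Cdc23, among the 5 APC/C subunits called higher, has counts that nearly equal those of the member Kif20a. Shared ends were not searched for in this list. Of the 38 genes listed for DNA replication, which takes place in S phase, 30 were tested, and 9 were called higher and 2 lower, against the same 22.8% and 22.1%, with a median log2 fold change of 0.47.

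The study measured the proliferation of LF cultures by the MTT assay, in which living cells reduce a dye to coloured formazan. Its reading follows the number of cells and their metabolic activity in a well, whereas the counts here give the RNA of mitosis genes relative to all RNA in a culture. No label ties the 6 libraries to wells of that assay, its readings were not used here, and the relation between the 2 measures was not tested. RNA levels are not a rate of division, and in these libraries Mki67 and Top2a were not called while Cdk1, Ccnb1 and Birc5 were.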

How the data were processed

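Quant-Seq libraries of 3 wt and 3 Tks5+/- LF samples were compared. Per the labels and the study's methods, the authors used Trim Galore for trimming and HISAT2 followed by Bowtie2 for alignment to GRCm38, and added up the reads on the 3′ UTR regions of each gene. The raw counts they deposited were the main data. The authors' normalized counts, rounded to whole numbers, were used as a score in 1 alternative. Whether counting kept to 1 strand is not given in the sources used here. Counting error is largest for members with few counts.

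The counts were fitted with edgeR 4.0.16 in R 4.3.3, using filterByExpr, TMM and the robust quasi-likelihood F test, over 10346 genes. This replaced the study's combination of tests, while its thresholds (adjusted p under 0.05, a change of 1.2 times) were kept. CPM used the TMM-scaled library sizes. Alternatives were DESeq2 1.42.0, limma-voom and limma 3.58.1, RLE, upper quartile and library total scaling, no filter, at least 10 counts in every library, corrections for transcript length and GC content, a replicate block, and leaving out single libraries. The corrections used a loess span of 0.5 and a prior count of 2. Corrections for coding transcript and 3′ UTR length were chosen after seeing the data. The fits were tested on simulated data. Plots were drawn with matplotlib 3.10.9 and tables with scipy 1.17.1, numpy 2.4.6 and pandas 2.3.3.

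Symbols and lengths came from the GENCODE annotation of GRCm38, and 55104 of 55364 identifiers matched. The members and lists were chosen with earlier results of these data known. Values in every library are given for up to 3 tested members with the smallest adjusted p in each role, and for Cdk1, Ccnb1, Mki67, Top2a, Bub3, Birc5 and H2afz. Other members are counted or named with fewer values, and of the further mitosis genes 3 are named in each direction. Markers of mesothelial, epithelial and smooth muscle cells were listed too, and their summed levels ran from 20.9 to 25.1, 32.6 to 69.0 and 4815 to 5729 CPM in wt and from 3.58 to 12.1, 30.2 to 62.6 and 6245 to 7131 CPM in Tks5+/- LFs. The sums hide differences of single markers. Of 3 tested epithelial markers 1 (Ager) was called higher and 2 lower. Of 7 tested smooth muscle and pericyte markers 2 were called higher and 4 lower, and the 1 tested mesothelial marker was lower. Over all genes tested the shares were 22.8% higher and 22.1% lower. Nnt, which differs between C57BL/6 substrains and is listed under 2 identifiers, had log2 fold changes of -1.56 and -1.58. Pairs of replicates of 1 genotype differed by 3.51 to 9.17 times the variance that counting alone gives, so no library was a copy of another.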

Additional observations from a re-analysis of the deposited data

How the results depend on the processing

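Over the 20 alternatives, members called higher ranged from 18 of 40 with library totals alone to 30 of 43 without wt replicate 3. The shares of all genes called higher were 13.2% and 20.2% in these fits. Of the 25 members, 15 were called higher in every alternative. In this last count a member that an alternative did not test was taken as not called. With at least 10 counts asked of every library, only 29 members were tested. Scaling by library totals alone moved the median of all genes to -0.47. The median of the members was then 0.67, which is 1.14 above that of all genes. With this scaling 3 members were called lower in place of 1, against 38.1% of all genes. Members called lower were 0 with the GC correction, and 0 to 1 when 1 library was left out.

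Mki67 and Top2a, which were not called, turned sign. Mki67 had log2 fold changes of 0.17 with the length correction, 0.19 with length and GC, 0.17 with coding transcript length and 0.12 without wt replicate 3, and -0.78 to 0.12 over the libraries left out. Top2a had 0.13 with the length correction, 0.17 with coding transcript length, 0.22 without wt replicate 3 and 0.031 without Tks5+/- replicate 2, and -0.41 to 0.22 over the libraries left out. The cause was not tested. Tacc3 lost its call in 9 of the 19 alternatives that tested it, Racgap1 in 7 of 20 and Pttg1 in 2 of 20.

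Equal replicate numbers did not pair the samples, with correlations of their deviations of -0.001, -0.064 and 0.082. With the replicate block 4668 genes were called in place of 4642, and 26 members were called higher and 1 lower, so the replicate block did not move a count by over 1.5 times. Depth limits the 15 members that were not tested, and Anln, Tacc3 and Mad2l1, which had as few as 2, 3 and 6 counts in a library.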
